A study of Rattus with 4 samples.

Results

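The C/D box small nucleolar RNAs (snoRNAs) were followed in RNA precipitated with an antibody to NONO, a nuclear RNA-binding protein of paraspeckles, and in input RNA of cultured rat cardiac cells. They comprise 39 of the 13731 genes in the deposited count table: every row typed as snoRNA whose description names SNORD, C/D or U3 and not SNORA or H/ACA, whatever its count. The table holds 136 snoRNA rows in all, and 87 of the others are of the H/ACA class. The 2 NONO IP libraries are labelled anti-NONO and as cells transfected with NONO siRNA. The 2 input libraries are labelled as having no antibody and as cells given an empty vector. All 4 carry the same tissue label, cardiac muscle; the growth protocol describes a bought line of rat cardiac fibroblasts, while the titles name H9C2, a rat heart myoblast line. Precipitation and knockdown cannot be told apart by these labels, and no library made with a control antibody was among the 4. Nothing in the labels ties the replicates to separate cultures. The p-values below set each difference against the spread between these libraries, with information shared across genes. That spread may not be one between cultures.

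C/D box snoRNAs are short nuclear RNAs that carry conserved C and D motifs and are bound by fibrillarin (Fbl), Nop56, Nop58 and Snu13. Most base-pair with ribosomal RNA and direct the 2'-O-methylation of the matched nucleotide, and a few, among them U3 and U14, are needed for cleavage of the ribosomal RNA precursor. In vertebrates most are cut out of introns of host genes, whereas U3 is made from its own promoter and is not spliced out of a host. H/ACA snoRNAs, the sister class, guide pseudouridylation with another set of proteins. C/D box snoRNAs are not polyadenylated, and the labels describe capture of polyadenylated RNA followed by fragmentation and size selection. Whether a read came from a finished snoRNA, a precursor or a host intron is not recorded in gene counts and was not tested.

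Gene counts summed to 279410 and 264059 in the NONO IP libraries and to 249548 and 238776 in the inputs. Ribosomal RNA rows took 31.9% to 32.2% of NONO IP counts and 41.1% to 42.3% of input counts. Levels are given as CPM, counts per library total scaled by the TMM method. On this scale 3 reads are 9.17 and 9.66 CPM in the NONO IP and 14.2 and 14.6 CPM in the inputs, and a lower level cannot be told from none. Nono itself had 3 and 3 reads in the NONO IP libraries and 21 and 9 in the inputs. The fibroblast markers were all listed and summed to 39274 NONO IP reads and 37430 input reads. Of 5 skeletal myoblast markers Des alone was found by symbol, with 6 NONO IP reads and 15 input reads, and Myod1, Myog, Myf5 and Pax7 were not. Cardiomyocyte markers summed to 148 NONO IP reads and 98 input reads and leukocyte markers to 4 NONO IP reads and 24 input reads, and none of 4 endothelial markers was found by symbol. Their part in the results was not tested.

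As a group the C/D box snoRNAs overlapped between NONO IP and input once the libraries were scaled, and took a larger raw share of the NONO IP reads. They held 451 and 342 reads in the NONO IP libraries and 259 and 239 in the inputs. Their share of all gene counts was 0.161% (exact binomial 95% interval 0.147 to 0.177) and 0.130% (0.116 to 0.144) in the NONO IP. In the inputs it was 0.104% (0.0915 to 0.117) and 0.1001% (0.0878 to 0.114). The labels name no molecular identifiers, and these intervals cover counting error only. On the TMM scale the pool was 1378 and 1102 CPM in the NONO IP and 1230 and 1163 CPM in the inputs, so the groups overlapped. The means were 1240 ± 195 and 1197 ± 47.4 CPM (NONO IP and input, SD, n = 2 each), a ratio of 1.04. The direction of the pool depended on the scale. The ratio of NONO IP to input means was 1.43 as a share of gene counts (log2 of 0.51), with no overlap between groups. As summed RPKM (the authors' unit, reads per length and library total) it was 0.732 (log2 of −0.45), again with no overlap. The median log2 difference of all tested genes moved with the scale too. It was 0.02 in the TMM fit, 0.48 with library totals and −0.61 with log2(RPKM + 1). Without NONO IP replicate 1 the log2 ratio in CPM was −0.12, against 0.05 with all 4 libraries. Counts come from bulk cultures, and each ratio sets precipitated RNA against input RNA, so it does not measure RNA per cell. No test was made over the pool, since 2 against 2 libraries cannot reach an exact two-sided permutation p below 0.333.

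**Figure D1:**
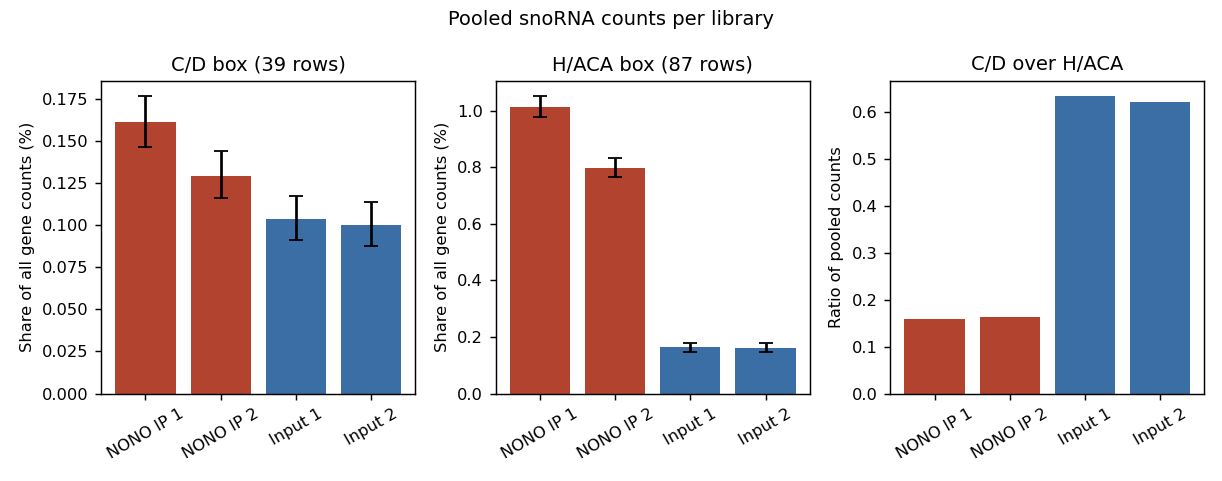
Pooled reads of 39 C/D box and 87 H/ACA box snoRNA rows per library. The first and second panels give the share of all gene counts (%, bars from 0, error bars the exact binomial 95% interval), and the third gives the C/D over H/ACA ratio of pooled counts. The C/D share was 0.161% and 0.130% in the NONO IP and 0.104% and 0.1001% in the inputs, while the ratio to H/ACA was 0.159 and 0.162 in the NONO IP and 0.635 and 0.621 in the inputs.

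The H/ACA class stood further apart. Its pool was 8656 and 6787 CPM in the NONO IP and 1938 and 1874 CPM in the inputs, a ratio of 4.05 by the means and with no overlap. For each H/ACA read there were 0.159 and 0.162 C/D reads in the NONO IP libraries and 0.635 and 0.621 in the inputs. This ratio needs no library scaling, and its mean was 0.161 ± 0.00221 in the NONO IP and 0.628 ± 0.00992 in the inputs (SD, n = 2 each). The gap was far wider than the spread between libraries, though an exact permutation test of 2 against 2 cannot give a two-sided p below 0.333.

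The contrast between the classes differed between pools of rows set by gene length. All 87 H/ACA rows were at least 100 nt long, whereas 27 of the 39 C/D rows were shorter. Among rows from 100 nt to below 160 nt, 7 C/D rows together had 412 and 309 CPM in the NONO IP and 242 and 209 CPM in the inputs. The 78 H/ACA rows of that length had 7153 and 5853 CPM in the NONO IP and 822 and 856 CPM in the inputs, a ratio of 7.75. In that range the C/D to H/ACA ratio was 0.0577 and 0.0528 in the NONO IP and 0.295 and 0.244 in the inputs. Without SNORD89 the other 6 C/D rows of that length were at 241 and 209 CPM in the NONO IP and 242 and 199.5 CPM in the inputs, which overlap. Among rows of 160 nt or more, 5 C/D rows (U3 and SNORD17) were at 0.905-fold and 9 H/ACA rows at 1.14-fold, and the groups overlapped for both. The ratio there was 0.604 and 0.807 in the NONO IP and 0.847 and 0.876 in the inputs, a far smaller gap than in the whole classes. Rows of 160 nt or more differed among themselves in the ratio of scaled sums. SNORD17 was at 0.566-fold and the U3 rows LOC120099037 and LOC120095490 at 1.22-fold and 2.49-fold. Among the H/ACA rows, SNORA74 LOC120098348 was at 1.09-fold and SNORA53 at 0.599-fold, but LOC120097670 (195 nt) at 11.6-fold and LOC120094429 (203 nt) at 4.65-fold. A trend with length across rows was not tested. These length ranges were chosen after the data were seen.

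The C/D reads came from very few genes. Of the 39 rows, 22 had a single read over all 4 libraries, 10 had 2 to 9 and 7 had 10 or more. The 6 rows with at least 20 reads held 94.1% of the 1291 C/D reads. Those 6 were SNORD17 (LOC120102082), the U3 rows LOC120099037 and LOC120095490, the SNORD15 rows LOC120100226 and LOC120100225, and SNORD89 (LOC120094944). Over the 39 rows, 15 had reads in both groups, 14 in the NONO IP alone and 10 in the inputs alone.

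The 6 most counted rows were long for their class. They measured 115 to 239 nt, with a median of 181 nt, and the other 33 had a median of 84 nt. The Spearman rho of reads with length was 0.586 across the 39 rows and 0.211 across the 87 H/ACA rows; points of each set share libraries, and both values are descriptions. The 27 rows under 100 nt, the usual size of a C/D box snoRNA, together held 53 reads, or 4.11% of the pool. The labels describe size selection of the libraries, whose part in this was not tested. Long rows could also be low: 2 of the 4 U3 rows, at 215 nt, had 3 reads and 1 read.

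**Figure D2:**
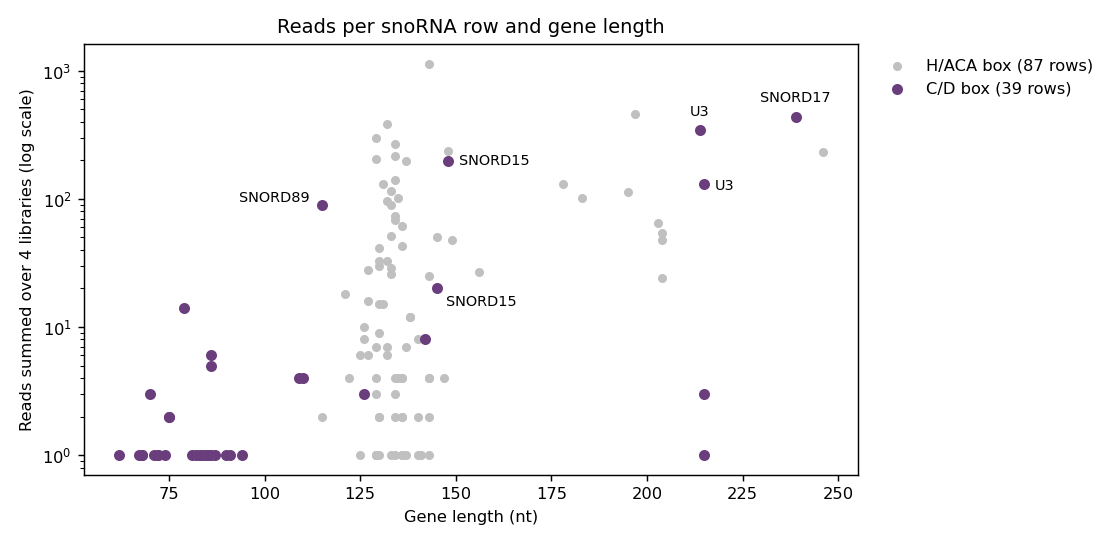
Each point is a snoRNA row, with its gene length in nt (x axis) and its reads summed over 4 libraries (y axis, log scale), for the C/D box (39 rows) and H/ACA box (87 rows) classes. C/D rows under 100 nt reach at most 14 reads, and the 6 labelled C/D rows lie between 115 and 239 nt.

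Of the 39 rows, 5 had enough reads for the count test (edgeR quasi-likelihood, adjusted over 2920 genes). Among these, 2 rose and 1 fell in the NONO IP relative to input at an adjusted p under 0.05. Of all tested genes 29.8% rose and 26.9% fell. SNORD89, 1 of the 2 that rose, had 0 and 2 input reads and entered the test through its NONO IP reads. With no count filter, 3 of the 39 rows (7.69%) rose and 2 (5.13%) fell, against 8.59% and 4.73% of all 13731 genes. Both shares are near the background. The groups did not overlap on the CPM scale for 9 of the 39 rows, with the NONO IP above for 4 and below for 5. Over all genes these shares were 22.1% and 23.2%. The groups of a row with a single read always overlap, and 22 of the 39 rows had a single read, so this comparison depends on depth.

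U3, which is required for the early cuts that release 18S rRNA, was counted on 4 rows. How reads that match several rows were counted is not given, so the split between rows is uncertain. The 4 together had 176 and 152 reads in the NONO IP and 75 and 73 in the inputs. Summed over the rows, U3 was at 538 and 489.6 CPM in the NONO IP and 356 and 355 CPM in the inputs, 1.44-fold by the means. This direction turned on the RPKM scale, where the sums were 878 and 836 in the NONO IP and 917 and 925 in the inputs. The log2 ratio of means there was −0.10, and the median of all tested genes with log2(RPKM + 1) was −0.61.

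The U3 row on chromosome 10, LOC120095490, was higher in the NONO IP. It had 48 and 55 reads in the NONO IP libraries and 13 and 14 in the inputs. These are 147 and 177 CPM in the NONO IP and 61.7 and 68.1 CPM in the inputs, with no overlap. The fit gave a log2 fold change of 1.34 (SE 0.29, adjusted p = 0.000887). On the RPKM scale it stayed positive at 0.68 but missed the threshold (limma adjusted p = 0.0536).

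The most counted U3 row, LOC120099037 on chromosome 20, had a smaller difference, and the 2 rows' differences were not tested against each other. It had 126 and 97 reads in the NONO IP and 61 and 58 in the inputs, or 385 and 312 CPM in the NONO IP and 289.7 and 282 CPM in the inputs. The groups did not overlap, but the log2 fold change of 0.32 (SE 0.17) missed the threshold (edgeR adjusted p = 0.124). The sign turned on the RPKM scale, at −0.35, where the median of all tested genes was −0.61. It passed with library totals (0.78, edgeR adjusted p = 0.000836), where the median gene was at 0.48. With no count filter it passed too (0.54, edgeR adjusted p = 0.0475), where the median gene was at 0.30. Without NONO IP replicate 2 its log2 difference was 0.51. For each read of LOC120095490 this row had 2.62 and 1.76 reads in the NONO IP and 4.69 and 4.14 in the inputs. This ratio did not overlap between the groups. The remaining U3 rows, LOC120095491 and LOC120095492, both on chromosome 10, had 1 NONO IP read against 2 input reads and 1 NONO IP read against none.

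SNORD17, a methylation guide for 28S rRNA in human, had the most reads of all C/D box rows and was the 1 tested row that fell. LOC120102082, on chromosome 3, had 121 and 82 reads in the NONO IP libraries and 124 and 110 in the inputs. Scaled levels were 369.7 and 264 CPM in the NONO IP and 589 and 535 CPM in the inputs, so both NONO IP libraries lay below both inputs. The means were 317 ± 74.7 and 562 ± 37.9 CPM (NONO IP and input, SD, n = 2 each). Its fitted log2 difference was −0.79 (SE 0.16, edgeR adjusted p = 0.000539). It was negative under every alternative tried and ended as a call only with library totals (−0.33, adjusted p = 0.0906), where the median gene was at 0.48. Without NONO IP replicate 2 it was −0.52 (adjusted p = 0.00721).

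SNORD17 was also a smaller part of the C/D pool in the NONO IP. It made up 26.8% and 24.0% of the C/D reads in the NONO IP libraries and 47.9% and 46.0% in the inputs. For each read of the chromosome 20 U3 row there were 0.960 and 0.845 SNORD17 reads in the NONO IP and 2.03 and 1.90 in the inputs. Per length, SNORD17 had the highest RPKM of all C/D rows in both inputs, at 1358 and 1249. In the NONO IP it had 541 and 404 RPKM, below the 629 and 534 of LOC120099037.

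**Figure D3:**
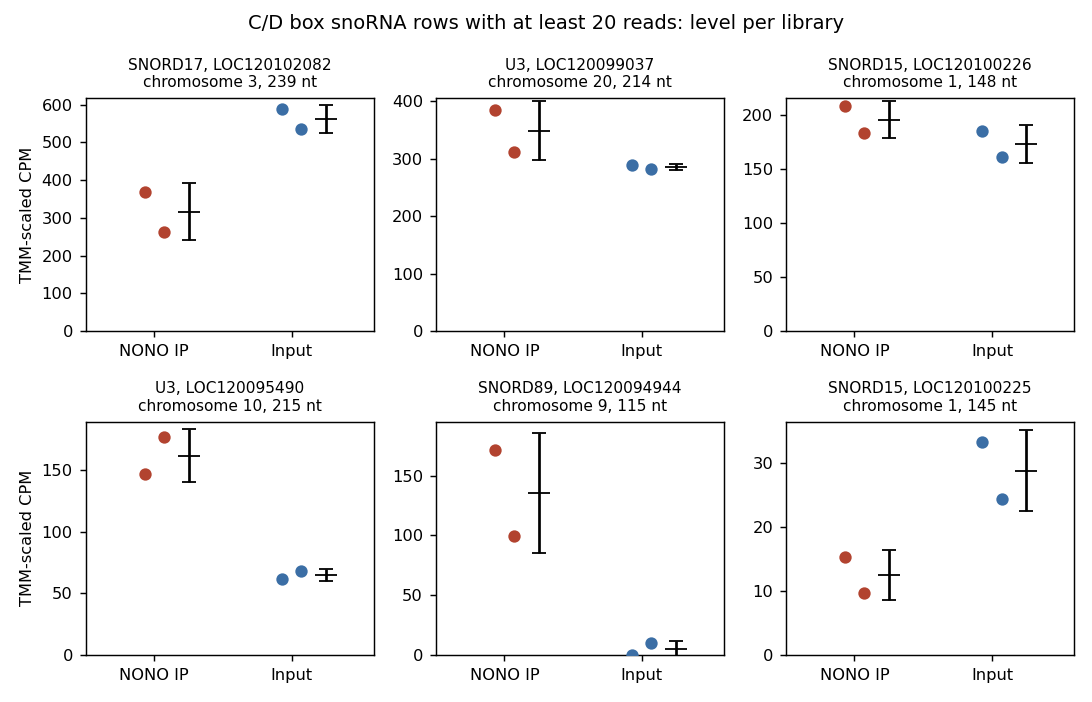
Level of the 6 C/D box rows with at least 20 reads, in TMM-scaled CPM (y axes from 0, each with its own range); points are libraries and bars the mean ± SD of 2 libraries. SNORD17 is lower in both NONO IP libraries, U3 LOC120095490 and SNORD89 are higher in both, and the groups overlap for SNORD15 LOC120100226.

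SNORD89 showed the largest difference of the tested C/D rows. LOC120094944, on chromosome 9, had 56 and 31 reads in the NONO IP libraries and 0 and 2 in the inputs. Scaled levels were 171 and 99.9 CPM in the NONO IP and 0 and 9.73 CPM in the inputs. The ratio of scaled sums was 28.4 (exact conditional 95% interval 7.62 to 238, counting error only). In the edgeR fit the log2 difference was 4.72 (SE 0.65, adjusted p = 1.07e-05). Without Input replicate 1 it was 3.74, and without Input replicate 2, whose 2 reads are the group's only ones, it was 8.26. In that last fit the input had 0 reads, so the value depends on the small count that the fit adds and is not a measured fold. With 2 input reads this row entered the test through its NONO IP reads. On the RPKM scale the difference missed the threshold (limma adjusted p = 0.101 at a pseudocount of 1). SNORD89 made up 12.4% and 9.06% of the C/D reads in the NONO IP and 0% and 0.837% in the inputs.

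SNORD15, a methylation guide for 28S rRNA in human, has both its counted rows on chromosome 1, and these went in different directions by value. LOC120100226 had 68 and 57 reads in the NONO IP and 39 and 33 in the inputs, which are 208 and 184 CPM in the NONO IP and 185 and 161 CPM in the inputs. The groups overlapped, and the log2 fold change of 0.21 (SE 0.22) missed the threshold (edgeR adjusted p = 0.428). It passed with library totals (0.67, adjusted p = 0.0134), where the median gene was at 0.48. On the RPKM scale the sign turned (−0.45), where the median gene was at −0.61. LOC120100225 was below the count filter, with 5 and 3 reads in the NONO IP and 7 and 5 in the inputs. Its ratio of scaled sums was 0.435, with an exact 95% interval of 0.154 to 1.16 that holds 1. For each read of LOC120100225 there were 13.6 and 19.0 reads of LOC120100226 in the NONO IP and 5.57 and 6.60 in the inputs. The difference between these 2 rows was not tested.

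**Figure D4:**
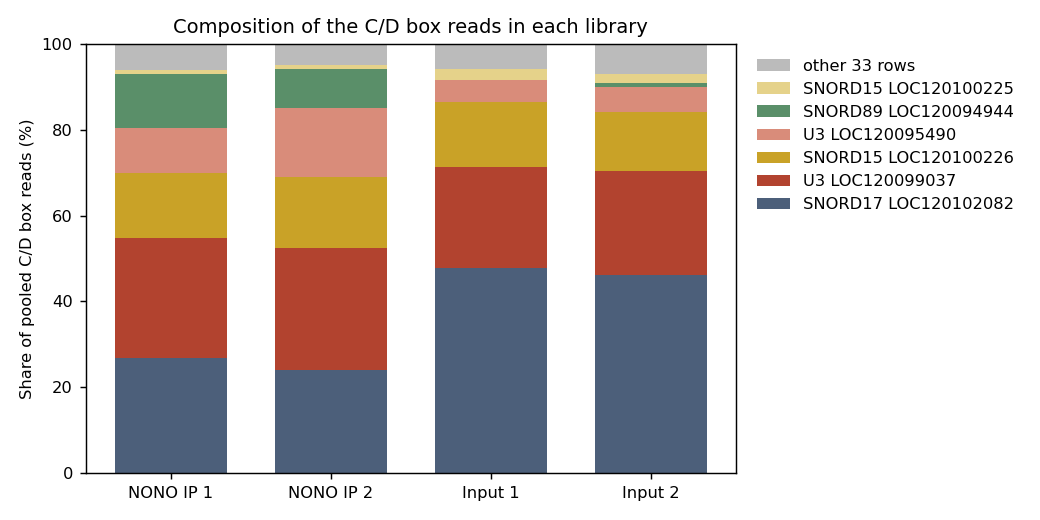
Share of the pooled C/D box reads (%) that fell on each of the 6 rows with at least 20 reads and on the other 33 rows together, in each library. SNORD17 takes 26.8% and 24.0% in the NONO IP and 47.9% and 46.0% in the inputs; SNORD89 takes 12.4% and 9.06% in the NONO IP and 0% and 0.837% in the inputs.

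**Figure D5:**
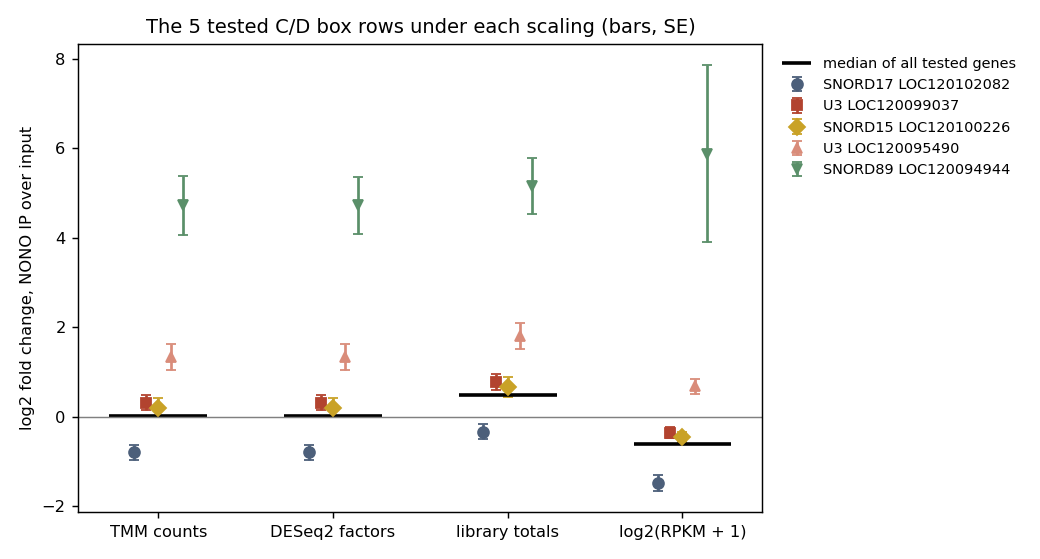
Log2 fold change of NONO IP over input for the 5 tested C/D box rows (y axis, error bars the SE) under 4 scalings (x axis), with the median of all tested genes as a black line. SNORD17 lies below the line and SNORD89 and U3 LOC120095490 above it on all 4, while U3 LOC120099037 and SNORD15 LOC120100226 lie near the line and change sign with it on the RPKM scale.

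The remaining 33 rows had at most 14 reads each and 76 in all, and their pool overlapped between the groups on the CPM scale. They had 27 and 17 reads in the NONO IP libraries and 15 and 17 in the inputs, or 82.5 and 54.8 CPM in the NONO IP and 71.2 and 82.7 CPM in the inputs. As summed RPKM they were at 323 and 232 in the NONO IP and 410 and 502 in the inputs, with no overlap. The log2 ratio of means there was −0.72, and the median of all tested genes with log2(RPKM + 1) was −0.61. The pool was not tested. The highest was SNORD55/SNORD39 (LOC120103255) on chromosome 5, with 6 and 6 reads in the NONO IP and 0 and 2 in the inputs. Its ratio was 3.91 with an interval of 0.871 to 36.0.

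U14 (SNORD14), known from yeast for its part in 18S rRNA processing and methylation, was counted on 3 rows. LOC120094547, on chromosome 8, had no NONO IP read and 2 and 4 input reads. The exact 95% interval of its ratio of scaled sums, NONO IP over input, reached up to 0.554 (counting error only). In the fit with no count filter its adjusted p was 0.0464, on 6 reads. LOC120094548, also on chromosome 8, had 2 and 0 reads in the NONO IP and 1 and 2 in the inputs, and LOC120100120 had a single NONO IP read. U22 (SNORD22, LOC120100233), known from Xenopus for its part in 18S rRNA formation, had 1 and 1 reads in the NONO IP and 0 and 1 in the inputs. No row of SNORD115 or SNORD116 was among the 39.

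RNAs that RefSeq names Snord but that lie outside the description rule were U13, U8, U83B and U6-53/MBII-28. U13 (LOC120097633), which pairs with 18S rRNA, had 13 and 5 reads in the NONO IP and 3 and 1 in the inputs. U8 (LOC120095383), required in Xenopus for 28S and 5.8S rRNA processing, had 1 and 1 in the NONO IP and 6 and 1 in the inputs. U83B (LOC120094014), named after its values were seen, had 20 and 25 reads in the NONO IP and 3 and 5 in the inputs (log2 fold change 1.88, SE 0.48, edgeR adjusted p = 0.00289). U6-53/MBII-28 (LOC120097217), likewise named afterwards, had 0 and 4 reads in the NONO IP and 2 and 1 in the inputs. Adding these 4 rows left the pool at 1.08-fold on the CPM scale.

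Genes around the C/D rows were looked up in RefSeq (GRCr8 assembly), whose gene table gives no strand. Of the 38 rows matched by gene ID, 36 lay within the bounds of a coding or lncRNA gene. The chromosome 20 U3 row lay in none, and 1 SNORD14 row (LOC120100120) is on another chromosome there than in the deposited table. The 25 such genes found in the count table held 12 tested genes, of which 2 rose and 8 fell in the NONO IP; the median of the 12 was −1.27 on the log2 scale, against 0.02 over all tested genes, of which 29.8% rose and 26.9% fell. Whether their counts include reads of the snoRNA inside them is not given in the sources used here.

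Levels of the most counted rows and of the genes around them were set side by side. SNORD17 lies within the bounds of LOC134486457 and of Snx5, a sorting nexin gene with 5 and 1 reads in the NONO IP and 3 and 0 in the inputs, far fewer than the snoRNA. Both SNORD15 rows lie within Rps3, a ribosomal protein gene that fell to 15 and 14 reads in the NONO IP, against 30 and 40 in the inputs. Rps3 was at −1.85 on the log2 scale (SE 0.31, edgeR adjusted p = 7.32e-05), whereas LOC120100226 was at 0.21. SNORD89 lies within Rnf149, a ubiquitin ligase gene with 112 and 89 reads in the NONO IP and 31 and 33 in the inputs. Rnf149 rose too, by 1.06 (SE 0.20, edgeR adjusted p = 0.000269), against 4.72 for the snoRNA. The U3 row LOC120095490 lies within the bounds of Tex14, a gene of germ cell bridges, which had 6 and 10 reads in the NONO IP and 0 and 0 in the inputs. The differences between members and these genes were not tested.

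Transcripts of the C/D box proteins were too low to test. The 4 core genes found had 14 and 12 reads in the NONO IP and 10 and 11 in the inputs. Fbl, the methyltransferase, had 11 and 8 reads in the NONO IP and 4 and 3 in the inputs. Nop56 had 2 and 1 in the NONO IP and 3 and 3 in the inputs, and Nop58 had 1 and 3 in the NONO IP and 3 and 3 in the inputs. Of 12 genes found on a list of assembly and related factors, the 1 tested was Ncl. It encodes nucleolin, a general nucleolar protein and not a dedicated assembly factor, so no dedicated assembly factor was tested. Ncl had 34 and 33 reads in the NONO IP and 37 and 33 in the inputs. Ncl was lower at a log2 fold change of −0.65 (SE 0.25, edgeR adjusted p = 0.0349), a call that ended under 6 alternatives, among them leaving out NONO IP replicate 1, NONO IP replicate 2 or Input replicate 1 (−0.57, −0.61 and −0.61). Of 38 U3 processome genes, the 1 tested was Pdcd11, a ribosome assembly factor, at −0.89 (SE 0.33, edgeR adjusted p = 0.0306), likewise lost under 6, among them the same left-out libraries (−0.79, −0.87 and −0.71).

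Known coding host genes of snoRNAs, ribosomal protein and translation factor genes among them, were mostly lower among those tested. Of 46 genes 23 were tested, of which 18 fell and 2 rose, where 26.9% of all tested genes fell and 29.8% rose; their median log2 difference was −2.05, against 0.02 over all 2920 genes. Without NONO IP replicate 2, or without Input replicate 1, 1 rose. Hspa8, the heat shock cognate gene that hosts SNORD14, had 3 and 1 reads in the NONO IP and 37 and 37 in the inputs (−4.70, SE 0.45, edgeR adjusted p = 1.55e-07). The elongation factor gene Eef2 was at −2.13 (SE 0.11, adjusted p = 1.77e-11). The ribosomal protein gene Rpl3 was at −2.36 (SE 0.29, adjusted p = 2.87e-06), and Rack1, a ribosome-bound scaffold gene, at −3.23 (SE 0.40, adjusted p = 3.24e-06). Of the noncoding hosts 3 were found, with 5 and 8 reads in all in the NONO IP and 6 and 1 in the inputs. Gas5, which holds the SNORD24 and SNORD75 rows, had 3 and 1 reads in the NONO IP and 2 and 1 in the inputs.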

How the data were processed

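Gene-level tables of 4 RIP-seq libraries were used, with groups and replicate numbers from the titles. The authors deposited unnormalised integer read counts for each gene and, beside them, RPKM values that divide by gene length and by a library total; both units are named in the file headers. Tools listed by the submitters' processing notes are HISAT2 and HOMER, with build mRatBN7.2. Their roles and versions, the counting program, strand use and the treatment of reads with several positions are not given in these sources. The split of reads among the rows of U3, SNORD14 or SNORD15, and between a snoRNA and a gene that overlaps it, is therefore uncertain.

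NONO IP was compared with input by edgeR 4.0.16 (R 4.3.3, glmQLFTest, TMM, filterByExpr, Benjamini-Hochberg over 2920 genes, threshold 0.05). The fit was tried on simulated counts in which a small part of the genes changed, equally up and down. In these libraries 56.7% of tested genes were called, so that trial does not test the scaling used here. Tested rows had at least 23 reads. SE is the log2 fold change over the root of F. Pools, ratios and intervals used scipy 1.17.1. Gene lengths came from counts divided by RPKM, set in nt by RefSeq, and 128 of 133 matched snoRNA rows fell within 1 nt. RefSeq (GRCr8) was used for names and containing genes. The RPKM total was 2.38-fold larger in the NONO IP, so RPKM and counts scale the groups differently.

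Alternatives were DESeq2 1.42.0 (size factors, Wald test), library totals, no filter, at least 50 counts in 2 libraries, limma 3.58.1 on log2 RPKM (pseudocount 1 or 0.1, RPKM of at least 1 in 2 libraries), a replicate block, other pools and denominators, and leaving out each library. Chi-square per degree of freedom between replicates was 1.42 for the NONO IP and 1.12 for the inputs, where 1 is sampling noise.

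Named rows are those tested or with at least 20 reads, U3, U8, U13, U14 and U22 rows, and up to 4 genes a list by adjusted p. The members and lists were chosen with earlier results of these data known. No sequence of these RNAs was used here.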

Additional observations from a re-analysis of the deposited data

How the results depend on the processing

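Depth limits these results first: 5 of the 39 rows were tested, and differences in most others were not detectable at this depth. Fewer genes are tested at 50 counts (600 in all, against 2920); the cause of the other shifts was not tested.

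Of 5 tested C/D rows 2 rose in the count test, where 871 of 2920 genes rose, and 4 of 5 with library totals (1219 of 2920 genes). With at least 50 counts 0 of 3 tested C/D rows rose, and the 2 rows that rose were not among those tested. With RPKM 0 of 16 rose at either pseudocount, against 393 and 348 of 7576 genes (pseudocounts 1 and 0.1). The 1 of 5 tested C/D rows that fell, where 786 of 2920 genes fell, became 0 of 5 with library totals (444 of 2920 genes). With no filter 2 of 39 fell, against 650 of 13731 genes. With RPKM 4 of 16 fell at either pseudocount, against 1425 and 1143 of 7576 genes (pseudocounts 1 and 0.1). On RPKM the log2 difference of LOC120099037 turned to −0.3529 and −0.3534 and that of LOC120100226 to −0.4516 and −0.4523 (pseudocounts 1 and 0.1). The median of all tested genes was −0.61 and −0.82 in these 2 fits, 0.48 with library totals and 0.30 with no filter.

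The log2 ratio of pooled C/D counts, 0.05 in CPM, was 0.51 with library totals, 0.29 over counts without rRNA, 0.35 over protein-coding counts, 0.54 without SNORD17, −0.21 without U3 rows, −0.21 with SNORD descriptions alone and −0.45 as summed RPKM; leaving out 1 library gave −0.12 to 0.20. The log2 change of the C/D to H/ACA ratio, −1.97, was −1.49 without the top row of each class, −2.07 as RPKM, −2.29 for rows of 100 nt to below 160 nt and −0.29 for rows of 160 nt or more; leaving out 1 library gave −1.98 to −1.95. The length ranges were added after the data were seen, as were the pools with other Snord rows (0.11) and without SNORD89 (−0.11).

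The number of genes tested in each list also differed between fits. The list of assembly and related factors had 1 tested gene (Ncl) in the count test, 12 with no filter and 8 with RPKM. U3 processome genes had 1, 38 and 22. Coding hosts had 23 tested genes in the count test, 3 with at least 50 counts and 44 with RPKM. Of 3 core protein genes tested with RPKM (pseudocount 1) 1 fell, and the count test held 0 of them. On the list of assembly and related factors 1 gene rose with no filter, against 0 in the count test. Those that fell, 1 (Ncl) in the count test, were 0 with library totals, 0 with DESeq2's Wald test, and 3 and 3 with RPKM. U3 processome genes that fell, 1 in the count test, were 0 with library totals, 0 with the Wald test, 0 with no filter, 4 and 3 with RPKM, and 0 to 1 without 1 library. Coding hosts that rose, 2 in the count test, were 1 with the Wald test, 1 with at least 50 counts, 0 and 0 with RPKM, and 1 to 2 without 1 library; those that fell, 18 in the count test, were 2 with at least 50 counts.

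With replicate number as a block the log2 differences were −0.80 for LOC120102082, 1.34 for LOC120095490 and 4.72 for LOC120094944, and the block changed no call of a C/D row. Deviations of same-numbered libraries correlated at 0.0508. Counting noise makes up much of these deviations and would keep the value low for paired libraries too, so it cannot decide whether the numbers are pairs. The main fit did not use them as pairs. Over all genes, calls were 870 and 806 with the block (rose and fell), against 871 and 786 without it.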
